A study of Mus musculus with 45 samples.

Results

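The genes of retinoic acid (RA) synthesis and breakdown were 9 of the 54532 genes in the count table: Cyp26a1, Cyp26b1, Cyp26c1, Dhrs3, Rdh10, Aldh1a1, Aldh1a2, Aldh1a3 and Cyp1b1. They were chosen by name, through the Ensembl identifier that carries each symbol, and all 9 were found. RNA was sequenced from organoids formed by wild-type R1 cells, one line of mouse embryonic stem cells, in Matrigel and N2B27, a serum-free medium in which such cells turn into neuroepithelium. At day 2 the organoids were sampled as a starting point, and the rest received N2B27 alone (untreated) or N2B27 with 250 nM all-trans RA. Both arms were collected 7 times, first at 8 h and 18 h and then every 12 h from 30 h to 78 h, which gave 15 conditions with 3 libraries each and 45 libraries in all. The dose and times are those of the series' design and sample titles. The sample protocols give the dose in micromolar and slightly later last times. Whether RA stayed in the medium until collection is not given in the sources used here. All organoids came from 1 line and were lysed whole, so that fewer cells of a type and less RNA per cell cannot be told apart in any value below.

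Cells make RA from retinol in a pair of oxidations. Rdh10 turns retinol into retinal, and the retinaldehyde dehydrogenases Aldh1a1, Aldh1a2 and Aldh1a3 turn retinal into RA. Dhrs3 works against the first step by reducing retinal back to retinol. Cyp26a1, Cyp26b1 and Cyp26c1 are cytochrome P450 enzymes that oxidise RA to less active products, and Cyp1b1 is a P450 that can oxidise retinol and retinal as well as oestrogens and foreign compounds. RA acts through nuclear receptors that bind paired hexamer motifs in DNA. In the embryo Aldh1a2 is the main source of RA in the trunk, and the Cyp26 genes protect the early head and hindbrain from it. Several of these genes are classical RA target genes.

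Cyp26a1 (ENSMUSG00000024987) lies on the plus strand of chromosome 19 at chr19:37697798-37701536 of GRCm38, and Cyp26c1 (ENSMUSG00000062432) ends 4399 bases upstream of it, at chr19:37685581-37693398. Cyp26b1 (ENSMUSG00000063415) is on the minus strand at chr6:84571414-84593908, and Dhrs3 (ENSMUSG00000066026) on the plus strand at chr4:144892827-144928209. The synthesis genes are Rdh10 (ENSMUSG00000025921, chr1:16105774-16133734, plus strand), Aldh1a1 (ENSMUSG00000053279, chr19:20492715-20643465, plus), Aldh1a2 (ENSMUSG00000013584, chr9:71215789-71296243, plus) and Aldh1a3 (ENSMUSG00000015134, chr7:66390890-66427517, minus). Cyp1b1 (ENSMUSG00000024087) is on the minus strand at chr17:79701537-79715061. No exon of the 9 genes overlapped an exon of another gene in GENCODE M21.

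The promoters of the 3 members that RA raised at 8 h are shown because they differ in 1 feature that a search found. RefSeq windows of GRCm38.p6, from 250 bases before to 50 bases after each transcript start, were at hand for 7 of the 9 members (10 windows). Both strands were searched for direct repeats of any of 4 hexamers (AGGTCA as the first, AGTTCA as the second, GGTTCA as the third and GGGTCA as the last), with 5 (DR5), 2 (DR2) or 1 (DR1) bases between them. The Cyp26a1 window held a DR5 on the minus strand, 15 bases before the transcript start, and no other member's window held a DR5, DR2 or DR1. The 250 bases before each start read, with hexamers in capitals (the windows of Cyp26b1 and Dhrs3 hold none):
Cyp26a1, chr19:37697558-37697807, plus strand: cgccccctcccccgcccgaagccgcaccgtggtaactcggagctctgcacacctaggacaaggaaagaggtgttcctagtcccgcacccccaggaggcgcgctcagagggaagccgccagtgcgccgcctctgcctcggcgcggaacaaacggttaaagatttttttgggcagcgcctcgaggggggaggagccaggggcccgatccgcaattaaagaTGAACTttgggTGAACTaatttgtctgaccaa
Cyp26b1, chr6:84593811-84594060, minus strand: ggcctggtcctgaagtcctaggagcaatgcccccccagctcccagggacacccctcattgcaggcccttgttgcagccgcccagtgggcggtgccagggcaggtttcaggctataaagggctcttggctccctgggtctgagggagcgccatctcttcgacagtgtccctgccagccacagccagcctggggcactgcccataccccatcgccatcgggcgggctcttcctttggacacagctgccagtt
Dhrs3, chr4:144892577-144892826, plus strand: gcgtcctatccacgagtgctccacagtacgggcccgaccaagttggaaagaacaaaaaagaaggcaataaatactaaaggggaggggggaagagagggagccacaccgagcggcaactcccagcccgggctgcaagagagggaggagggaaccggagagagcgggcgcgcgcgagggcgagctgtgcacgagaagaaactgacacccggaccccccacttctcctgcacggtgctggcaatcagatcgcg
Read on its own strand, the Cyp26a1 repeat can be set beside the one found in the window of Rarb, the RA receptor gene raised at every time:
Cyp26a1, chr19:37697776-37697792: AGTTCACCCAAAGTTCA
Rarb, chr14:16575513-16575529, 36 bases before the start: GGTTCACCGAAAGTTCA
Among 27025 genes with a window, 31 held a DR5 (0.115%), 84 a DR2 (0.311%) and 71 a DR1 (0.263%). A match describes the letters and not a bound site, and a window without one says nothing about sites farther away.

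Library totals ran from 17298632 to 39688686 counts (median 25923745). Marker lists placed the material: the summed level of 6 neural progenitor genes was 466 to 484 CPM at day 2 and 846 to 1079 CPM at 78 h over both arms, while 6 forebrain and eye field genes never summed to more than 7.60 CPM. Other lists moved with RA. The sum of 6 endoderm genes was 4.48 to 29.5 CPM in RA libraries against 0.715 to 3.94 CPM in untreated ones, with Afp and Ttr at no more than 1.19 CPM. The sum of 4 neural crest genes was 8.73 to 13.1 CPM with RA against 38.8 to 59.4 CPM without it from 8 h to 30 h, where Foxd3 alone was at no more than 6.16 CPM with RA and at 33.2 to 51.2 CPM without it, and that of 4 epithelial genes was lower with RA at 8 h, at 210 to 282 CPM against 331 to 363 CPM, and higher at 78 h, at 583 to 621 CPM against 149 to 171 CPM. The sum of 6 hindbrain genes was 275 to 447 CPM with RA against 59.8 to 64.8 CPM at 8 h and 18 h, and 64.3 to 72.6 CPM against 143 to 192 CPM at 78 h, and that of 7 pluripotent and epiblast genes was 734 to 829 CPM against 1469 to 1573 CPM at 18 h. The sum of 6 neuronal genes was 90.8 to 102 CPM with RA against 216 to 251 CPM at 42 h, and 304 to 330 CPM against 264 to 279 CPM at 78 h. The 6 mesoderm genes summed to 49.3 to 67.9 CPM against 33.8 to 42.1 CPM at 8 h, where none of the 4 tested was called. At 78 h their sums overlapped, at 11.4 to 14.0 CPM against 10.4 to 11.9 CPM, with 2 genes raised and 1 lowered. The part of these changes in the results below was not tested. Expression of 4 Y-linked genes averaged 1.22 to 3.65 CPM in 6 libraries, namely all 3 untreated and RA replicates 1 and 3 of 30 h and RA replicate 3 of 8 h, and 22.9 to 89.5 CPM in the other 39. No library of 18 h or 42 h was among the low ones. For the low libraries of 30 h, time and this difference between libraries cannot be told apart in any change from 18 h or to 42 h. The 16 libraries numbered in a later series include all those of 66 h and 78 h, RA replicates 2 and 3 of 30 h, untreated replicate 3 of 54 h and day 2 replicate 3. The split into an earlier and a later series rests on the library numbers alone. Within the later series, day 2 replicate 3 and RA replicates 2 and 3 of 30 h are numbered apart from the rest. Whether the libraries of a series were prepared together is not given in the sources used here.

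The first question was how the genes that remove RA and retinal answered to added RA, and the answer was fast and large. At 8 h Cyp26a1, Cyp26b1 and Dhrs3 had risen 42.1-fold, 26.1-fold and 12.1-fold, and none of the other tested members had. By 54 h these effects had shrunk or turned: Cyp26a1 was higher by only 0.69 on the log2 scale and no longer called, and Cyp26b1 was lower with RA than without it. Cyp26c1, not tested at 8 h, was also lower with RA at 54 h. A change was called where the quasi-likelihood p of edgeR, adjusted after Benjamini and Hochberg over all genes, was under 0.01 and the log2 fold change was above 1 in size. Each ± after a log2 fold change is its SE and each ± after a level is an SD (n = 3).

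Cyp26a1 stood at 2.20, 1.90 and 1.74 CPM (counts scaled to a common library size by TMM over all libraries) in the day 2 libraries. Untreated organoids had 5.16, 5.57 and 5.82 CPM at 8 h, while those with RA had 265, 248.6 and 182 CPM. The groups lay far apart, although RA replicate 3, which also had low Y-linked expression, was the lowest of its group. The values below hold all 3 libraries. Without it the log2 fold changes at 8 h were 5.53 for Cyp26a1, 4.66 for Cyp26b1 and 3.78 for Dhrs3. At 18 h the RA libraries held 257, 288 and 284 CPM against 2.26, 2.89 and 3.09 CPM untreated. The log2 fold change was 5.39 ± 0.16 at 8 h (adjusted p = 1.3e-05) and 6.63 ± 0.09 at 18 h (adjusted p = 8.2e-14).

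The level of Cyp26a1 with RA was far lower at the next time. At 30 h it was 17.9, 55.8 and 17.9 CPM, and replicate 2 stood apart at about 3 times the level of the others. That library was also the one RA library of 30 h with Y-linked expression like that of most libraries. For the others, time and that difference between libraries cannot be told apart in this fall. The log2 fold change was 3.19 ± 0.50 (adjusted p = 0.0036) and 2.39 without that library. Within the earlier series, which leaves 1 RA library of 30 h that is assumed to vary like the untreated ones, it was 2.40. At 42 h the 3 RA libraries were close together, at 27.5, 29.6 and 28.5 CPM, against 2.96 to 3.50 CPM untreated (log2 fold change 3.11 ± 0.10, adjusted p = 3.7e-09).

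From 54 h on Cyp26a1 was not called. It had 8.55 ± 1.04 CPM with RA and 5.25 ± 0.67 CPM without it at 54 h, a log2 difference of 0.69 ± 0.14 that was under the fold threshold (adjusted p = 0.0023). At 66 h the libraries overlapped, at 5.81 to 8.63 CPM with RA and 5.10 to 6.01 CPM untreated. At 78 h the RA libraries were the lower ones, with 4.06 to 5.82 CPM against 6.72 to 9.37 CPM, and the difference of -0.54 ± 0.17 was not called (adjusted p = 0.023). In the order of the 15 condition means RA 18 h and RA 8 h led, with ranges that overlapped, followed by RA 30 h and RA 42 h, which also overlapped. Each of the next conditions, from RA 54 h down to RA 78 h, overlapped its neighbour. Day 2 was lowest, below untreated 18 h without overlap.

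Cyp26b1, the family member best known from the hindbrain and limb, had 0.62, 0.60 and 0.46 CPM at day 2. At 8 h it held 24.5, 19.4 and 23.7 CPM with RA against 0.88, 0.70 and 1.01 CPM untreated (log2 fold change 4.71 ± 0.19, adjusted p = 3.1e-05). At 18 h the values were 16.6, 19.2 and 16.8 CPM against 0.23, 0.33 and 0.45 CPM (5.62 ± 0.17, adjusted p = 4.1e-11). All RA libraries of both times were above all untreated ones. At 30 h the RA level was down to 1.90 to 2.29 CPM, against 0.15 to 0.49 CPM untreated (2.62 ± 0.41, adjusted p = 0.0035).

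The untreated arm then overtook it. Without RA, Cyp26b1 had 1.69, 2.93 and 2.34 CPM at 42 h, 8.62, 12.5 and 16.0 CPM at 54 h, 43.2, 42.5 and 57.1 CPM at 66 h and 102, 87.1 and 141 CPM at 78 h. With RA it stayed between 1.19 and 8.68 CPM at those 4 times. The 2 arms did not overlap at any of them, with RA above at 42 h and below from 54 h. The difference was 0.71 ± 0.22 at 42 h (adjusted p = 0.019, not called), -2.59 ± 0.28 at 54 h (adjusted p = 2.0e-05), -2.91 ± 0.23 at 66 h (adjusted p = 5.5e-06) and -4.71 ± 0.24 at 78 h (adjusted p = 6.3e-08). The last is a level 26.2-fold lower with RA. Untreated 78 h and 66 h head the order of its means, without overlap, and RA 8 h and RA 18 h follow, the first above the second by less than 1 CPM at their nearest libraries. The lowest means, untreated 30 h and untreated 18 h, overlapped.

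Cyp26c1, whose RNA in the embryo marks the early hindbrain and head mesenchyme, was scarce throughout, at 0 to 120 counts. The only condition whose mean passed 2 CPM was untreated 78 h, with 2.70, 3.57 and 2.62 CPM. At 18 h it had 0.43, 0.45 and 0.78 CPM with RA (10, 11 and 18 counts) against 0.23, 0.08 and 0.13 CPM (5, 2 and 5 counts), and the log2 fold change of 1.93 ± 0.48 was called (adjusted p = 0.0045). The call was lost in DESeq2 (adjusted p = 0.025), and in edgeR when untreated replicate 2, untreated replicate 3 or RA replicate 3 was left out (adjusted p = 0.017 to 0.033). Its direction later was the opposite. RA libraries held 0.105 to 0.258 CPM at 54, 66 and 78 h, below every untreated library of those times (0.878 to 3.57 CPM). The log2 differences were -2.15 ± 0.34 (adjusted p = 0.00037), -3.16 ± 0.37 (adjusted p = 7.3e-05) and -4.14 ± 0.31 (adjusted p = 1.1e-06). At 42 h the difference of -1.67 ± 0.50 was not called (adjusted p = 0.016). Replicate 3 with RA held 13 counts there against 3 and 3 in the others, and without it the difference was -2.69 (adjusted p = 0.0016).

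Dhrs3, which returns retinal to retinol, kept its RA effect longer than the Cyp26 genes. It had 29.7, 30.2 and 18.8 CPM with RA against 2.63, 1.54 and 2.36 CPM at 8 h, and RA replicate 3 was again the lowest. At 18 h it had 41.0, 47.7 and 44.8 CPM against 0.95, 1.07 and 1.28 CPM. The log2 fold changes were 3.60 ± 0.26 (adjusted p = 0.00043) and 5.31 ± 0.11 (adjusted p = 1.6e-12). At 30 h the RA level was 36.6, 30.9 and 35.9 CPM, so that the library that stood apart for Cyp26a1 did not do so for Dhrs3, and the effect was 5.06 ± 0.21 (adjusted p = 2.4e-05). It was 3.58 ± 0.11 at 42 h (adjusted p = 3.7e-09) and 1.37 ± 0.17 at 54 h (adjusted p = 6.6e-05). At 66 h and 78 h the arms overlapped, with 2.46 to 5.10 CPM with RA and 1.87 to 3.31 CPM without it over both times, and the differences of 0.30 ± 0.24 and 0.64 ± 0.23 were not called (adjusted p = 0.33 and 0.041). The order of the means was RA 18 h, 30 h, 42 h and 8 h, with the ranges of the last 2 overlapping.

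**Figure D1:**
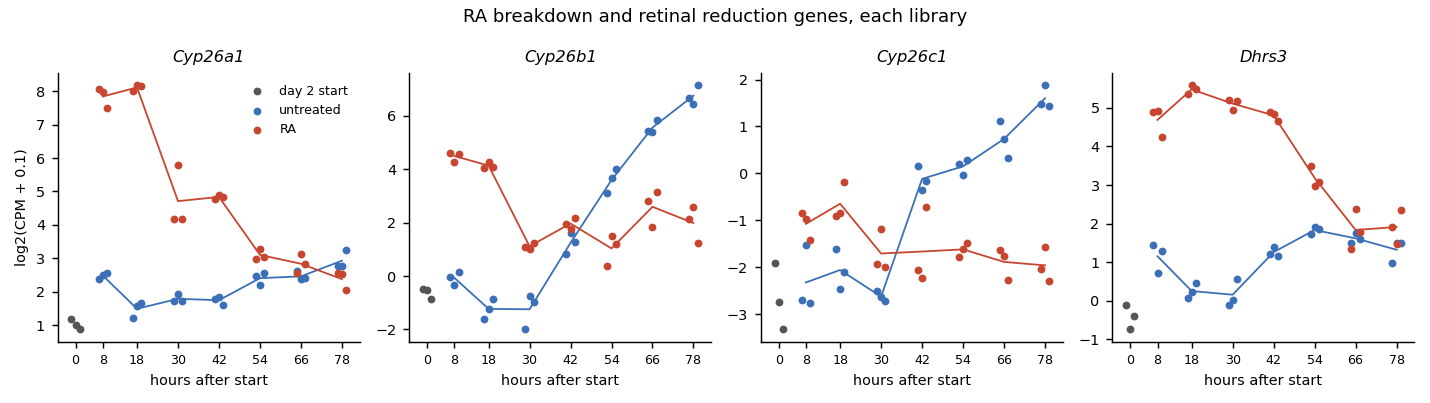
Level of Cyp26a1, Cyp26b1, Cyp26c1 and Dhrs3 in each of the 45 libraries, as log2(CPM + 0.1), against hours after day 2. Points are libraries (grey day 2, blue untreated, red RA) and lines join the means of 3 libraries. Cyp26a1, Cyp26b1 and Dhrs3 are far higher with RA at 8 h and 18 h, and Cyp26b1 and Cyp26c1 are higher without RA from 54 h on.

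The next question was whether the genes that make RA, and Cyp1b1, differed between the arms as well. None of those tested passed at 8 h. Cyp1b1 was called higher with RA from 18 h, Aldh1a2 from 30 h and Aldh1a1 from 42 h, and all 3 still were at 78 h. These are the times of the calls. Aldh1a2 was already higher with RA at 18 h, under the fold threshold. Aldh1a1 was higher with RA at 30 h, with too few counts to be tested. Rdh10 was called at no time, and 8 h was the only time at which Aldh1a3 was tested between the arms, without a call.

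Rdh10, which sets the supply of retinal in the embryo, had 10.3 to 22.7 CPM in every library. Its lowest condition mean was 11.1 ± 0.41 CPM (untreated 18 h) and its highest 21.4 ± 0.48 CPM (untreated 54 h). The RA effect was 0.05 ± 0.12 at 8 h and 0.04 ± 0.08 at 18 h on the log2 scale (adjusted p = 0.82 and 0.71). The arms did not overlap at 42 h, with 14.97 to 16.2 CPM with RA against 17.9 to 22.7 CPM (-0.40 ± 0.10, adjusted p = 0.0049), or at 78 h, with 18.3 to 18.8 CPM against 15.5 to 16.0 CPM (0.25 ± 0.07, adjusted p = 0.013). Both are under the fold threshold. The 5 lowest means, those of day 2 and of both arms at 8 h and 18 h, overlapped each other.

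Aldh1a2, the main RA-making enzyme of the embryonic trunk, had 3.81, 3.25 and 4.07 CPM at day 2. Without RA it was at 2.39 to 3.33 CPM over 8 h and 18 h, 1.05 to 1.46 CPM at 30 h, 0.88 to 1.08 CPM at 42 h and 0.36 to 0.92 CPM over the last 3 times. With RA it remained at 1.93 to 5.00 CPM at all 7 times. Thus the arms parted mainly through the untreated one. At 8 h they overlapped (0.02 ± 0.27, adjusted p = 0.97), with RA replicate 3 lowest at 1.99 CPM. At 18 h the RA libraries were higher, with 4.47, 4.66 and 5.00 CPM against 3.25, 2.39 and 2.45 CPM, by 0.83 ± 0.16, which is under the fold threshold (adjusted p = 0.00069).

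From 30 h Aldh1a2 was called at every time. The log2 fold change was 1.32 ± 0.23 at 30 h (adjusted p = 0.0056), 1.51 ± 0.25 at 42 h (adjusted p = 0.00047), 2.39 ± 0.30 at 54 h (adjusted p = 7.0e-05), 2.58 ± 0.24 at 66 h (adjusted p = 1.6e-05) and 2.79 ± 0.28 at 78 h (adjusted p = 1.1e-05). At 78 h the libraries had 4.32, 3.58 and 4.06 CPM with RA and 0.43, 0.36 and 0.92 CPM without it. No RA library of these times was as low as an untreated one of its own time.

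Aldh1a1 was near 0 at first. It had 0, 1 and 1 counts at day 2, 0 to 6 counts in either arm at 8 h and 18 h, and 0 counts in all 3 untreated libraries at 30 h, where 3 counts, the limit that a count of 0 allows, would be 0.113 to 0.183 CPM. The RA libraries of 30 h held 8, 19 and 12 counts, at 0.26, 0.58 and 0.36 CPM, too few to enter the test. At 42 h it had 2.98, 2.25 and 2.596 CPM with RA against 0.16, 0.15 and 0.25 CPM (4, 4 and 7 counts). Its RA level was 4.35 to 7.09 CPM at 54 h, 3.43 to 5.57 CPM at 66 h and 4.91 to 5.94 CPM at 78 h, with no more than 0.32 CPM in any untreated library. All RA libraries from 42 h were thus several times above all untreated ones. The log2 fold changes were 3.74 ± 0.31, 4.39 ± 0.29, 4.75 ± 0.31 and 4.60 ± 0.23 (adjusted p = 3.9e-06, 5.4e-07, 1.4e-06 and 5.4e-08). Of the 4934 different 75-base stretches in its annotated transcripts, 50 (1.01%) also occur in Aldh1a7, a close relative with a higher level. How reads from these stretches were assigned was not tested.

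Aldh1a3, the retinaldehyde dehydrogenase of the eye and nasal region, had 0 to 21 counts in a library. In the comparisons of the arms at single times it passed the filter on low counts only at 8 h. There it had 0.88, 0.95 and 0.17 CPM with RA and 0.55, 0.30 and 0.43 CPM without it, and the groups overlapped (0.68 ± 0.59, adjusted p = 0.49). After 8 h its RA means were 0.146 to 0.365 CPM and its untreated means 0.0432 to 0.153 CPM, and it was left out of the test at these times by the filter on low counts. Of its 4601 different 75-base stretches, 27 (0.587%) occur in other genes.

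Cyp1b1 had the largest fold change of the tested members at 30, 42, 54 and 66 h. At 66 h Aldh1a1 was close to it (log2 fold change 4.81 ± 0.09 for Cyp1b1 and 4.75 ± 0.31 for Aldh1a1). It had 0.79, 0.65 and 0.37 CPM at day 2 and 1.34, 1.18 and 0.83 CPM with RA at 8 h, which overlapped the untreated libraries (0.70 to 1.11 CPM, 0.36 ± 0.31, adjusted p = 0.49). At 18 h it had 5.12, 3.63 and 3.52 CPM with RA against 0.68, 0.41 and 0.56 CPM (2.90 ± 0.25, adjusted p = 9.5e-07). At 30 h it had 50.7, 22.3 and 51.9 CPM against 0.60, 0.30 and 0.61 CPM, and replicate 2 was now the low library (6.30 ± 0.44, adjusted p = 0.00012). The same library was thus the highest of its group for Cyp26a1 and the lowest for Cyp1b1. Without it the effect was 6.57.

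Cyp1b1 then reached its highest level, 99.7, 116 and 112 CPM with RA at 42 h, against 1.69, 2.21 and 1.41 CPM untreated. With RA it had 62.3, 83.7 and 99.8 CPM at 54 h, 38.8, 41.6 and 39.5 CPM at 66 h and 22.8, 19.5 and 18.8 CPM at 78 h, while no untreated library passed 2.21 CPM at any time. The log2 fold changes at 42, 54, 66 and 78 h were 5.94 ± 0.12, 6.17 ± 0.20, 4.81 ± 0.09 and 3.82 ± 0.17 (adjusted p = 3.6e-10, 5.1e-09, 1.1e-09 and 1.9e-08). In the order of the means RA 42 h and RA 54 h came first and just overlapped, and RA 30 h and RA 66 h overlapped. RA 78 h, next in the order, was below RA 66 h without overlap, although 1 of its libraries lay within the range of RA 30 h, and RA 18 h stood apart.

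**Figure D2:**
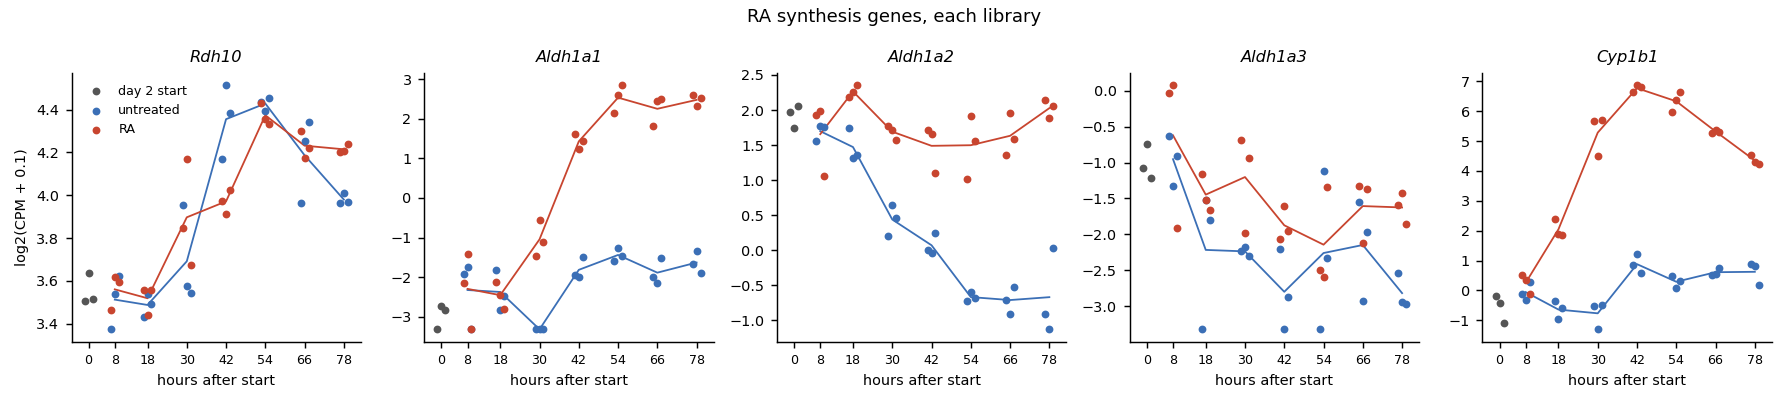
Level of Rdh10, Aldh1a1, Aldh1a2, Aldh1a3 and Cyp1b1 in each of the 45 libraries, as log2(CPM + 0.1), against hours after day 2, with a vertical scale of its own for each gene. Points are libraries (grey day 2, blue untreated, red RA) and lines join the means of 3 libraries. With RA, Aldh1a1 climbs after 18 h, and Cyp1b1 climbs from 8 h to 42 h and falls after that. Aldh1a2 declines without RA, and Rdh10 stays between 10.3 and 22.7 CPM in both arms.

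Counted over the members, RA raised 3 of 7 tested at 8 h, where 1.26% of all genes tested were raised, and lowered none, where 0.537% were. Neither DESeq2 nor an unadjusted p under 0.05 in edgeR put a member among the lowered ones at that time. At 18 h 5 of 7 were raised (8.17% of all genes) and 0 lowered (2.76%), and at 30 h 5 of 6 were raised (5.98%) and 0 lowered (2.48%), with 0 lowered at an unadjusted p under 0.05 or by DESeq2 at either time. At 42 h 5 of 8 were raised (7.49%) and 0 lowered (4.96%), while 2 were lower at an unadjusted p under 0.05 (Rdh10 and Cyp26c1) and 0 by DESeq2. Members were called in both directions only from 54 h on. At that time 4 of 8 were raised (7.17%) and 2 lowered (5.99%), at 66 h 3 of 8 were raised (7.06%) and 2 lowered (4.44%), and at 78 h 3 of 8 were raised (7.66%) and 2 lowered (4.03%). The median log2 fold change of the tested members was 2.90 at 18 h, 1.03 at 54 h and 0.45 at 78 h, against medians of 0.0227, 0.00179 and 0.0015 over all genes.

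The members not tested were Aldh1a1 from 8 h to 30 h, Cyp26c1 at 8 h and 30 h and Aldh1a3 from 18 h on, and as genes low in both arms they fell to the filter. Where Aldh1a1 and Cyp26c1 were tested, they passed the filter only through the arm in which they were higher. At 42 h Aldh1a1 had 59 to 66 counts with RA and 4 to 7 untreated. Cyp26b1 and Cyp1b1 would not have passed it at 18 h and 30 h on their untreated libraries alone. Untreated Cyp26b1 had 5 to 17 counts at 18 h and 4 to 8 at 30 h, and untreated Cyp1b1 had 10 to 21 and 5 to 16. The part of all these genes in the counts of members raised or lowered is therefore not independent of the filter. The calls at 30 h were the least firm. Leaving out untreated replicate 1, 2 or 3 of that time ended the calls of Cyp26a1, Cyp26b1 and Aldh1a2 (adjusted p = 0.012 to 0.039), so that 2 members were called, and without RA replicate 1 or 3 those of Cyp26b1 and Aldh1a2 ended and 3 were called. The direction stayed in each case. Within the earlier series 5 were called, with log2 fold changes of 2.603 for Cyp26b1, 5.14 for Dhrs3, 1.41 for Aldh1a2 and 6.57 for Cyp1b1, and at 54 h 6 were called within it.

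**Figure D3:**
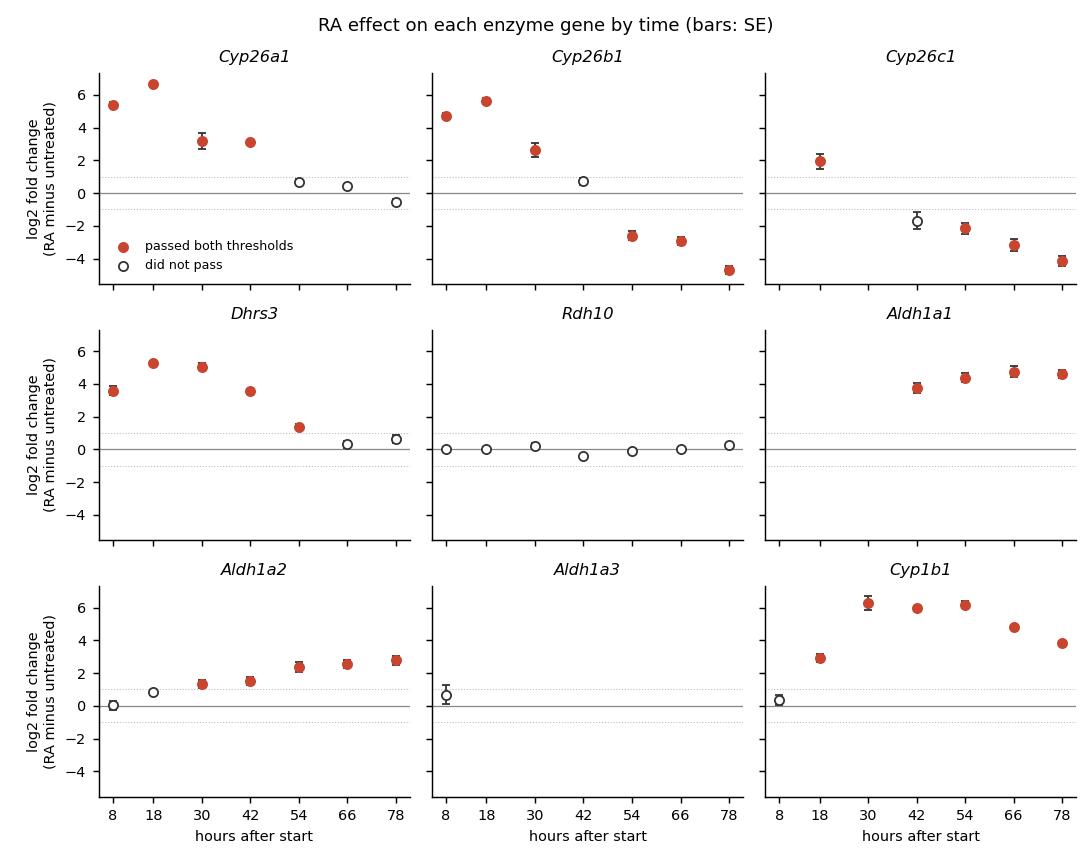
Log2 fold change of each enzyme gene, RA minus untreated, at the 7 times after day 2, with bars for 1 SE; dotted lines mark a log2 change of 1 and -1. Filled points passed both thresholds, open points did not, and times without a point were not tested. Cyp26b1 and Cyp26c1 cross from above 0 to below it, Dhrs3 and Cyp26a1 are above 2 on this scale up to 42 h and between -1 and 1 at 66 h and 78 h, and Cyp1b1, Aldh1a1 and Aldh1a2 stay above it.

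The untreated arm gave the course of these genes without added RA. None of the 6 members tested was called at 18 h against day 2, where 4.56% of all genes were called in either direction. At an unadjusted p under 0.05 there were 2 higher members (Cyp26a1 and Dhrs3) and 1 lower (Aldh1a2), and DESeq2 called 0. At 42 h 4 of 7 were raised over day 2 and 1 lowered, against 21.8% of all genes called, and at 78 h 5 of 7 were raised and 1 lowered, against 34.0%. The lowered member was Aldh1a2 both times, with log2 changes of -1.93 ± 0.23 at 42 h (adjusted p = 3.3e-06) and -2.67 ± 0.29 at 78 h (adjusted p = 3.5e-07). Cyp26b1 rose by 2.08 ± 0.31 and 7.61 ± 0.23 on the log2 scale (adjusted p = 3.2e-05 and 3.5e-14), the last being 196-fold. Cyp26c1 rose by 3.45 ± 0.61 and 5.25 ± 0.46 (adjusted p = 0.00017 and 2.2e-08), from 5 counts in all at day 2. Dhrs3 and Cyp1b1 rose at both times, and Cyp26a1 at 78 h (1.97 ± 0.18, adjusted p = 3.6e-08). The rise of Cyp1b1 at 78 h was 1.28 ± 0.34 (adjusted p = 0.0026) and was lost without untreated replicate 1, untreated replicate 2 or day 2 replicate 3 (adjusted p = 0.014 to 0.016). All 78 h libraries are numbered in the later series, with day 2 replicate 3 as the 1 day 2 library of that series. Within it, again with 1 library assumed to vary like the rest, the log2 change was 7.89 for Cyp26b1 and -2.81 for Aldh1a2. Day 2 replicate 3 is numbered apart from the 78 h libraries, so these values are not known to be free of a difference between library preparations. Within the earlier series 5 members were called at 42 h and 0 at 18 h.

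Within the RA arm, 42 h against 18 h separated the early from the late genes. Aldh1a1 and Cyp1b1 rose, by 4.85 ± 0.37 and 4.74 ± 0.12 on the log2 scale (adjusted p = 6.2e-07 and 1.6e-10), and Cyp26a1 and Cyp26b1 fell, with log2 changes of -3.27 ± 0.06 and -2.19 ± 0.12 (adjusted p = 2.6e-11 and 5.0e-08). That makes 4 of 8 members tested, against 14.1% of all genes called. From 42 h to 78 h Cyp26a1, Cyp1b1 and Dhrs3 fell, with log2 changes of -2.49 ± 0.12, -2.46 ± 0.09 and -2.92 ± 0.17 (adjusted p = 3.3e-07, 5.4e-08 and 1.1e-06), and Aldh1a1 rose by 1.05 ± 0.16 (adjusted p = 0.00065), against 7.26% of all genes. Without RA 42 h replicate 2 or RA 78 h replicate 1 the rise of Aldh1a1 was 0.95 or 0.99, under the fold threshold. All RA libraries of 42 h are of the earlier series and all of 78 h of the later one, so that time and library series cannot be told apart in this comparison.

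The change of the RA effect itself was tested as an interaction over 12 libraries, with an adjusted p under 0.01 as the only threshold. Between 8 h and 18 h it changed for 1 of 8 members tested, Cyp1b1, against 0.341% of all genes, at an adjusted p of 0.0099, and 0 members were called downwards at an unadjusted p under 0.05 or by DESeq2. The call was lost when any library other than RA 8 h replicate 3 was left out (adjusted p = 0.013 to 0.044). The differences of 1.24 ± 0.20 for Cyp26a1 and 1.71 ± 0.31 for Dhrs3 were not called (adjusted p = 0.010 and 0.021), but both were called without RA 8 h replicate 3 (adjusted p = 7.9e-05 and 0.00038). Between 18 h and 42 h it changed for 6 of 8 members, against 16.2% of all genes: up for Cyp1b1 and Aldh1a1, down for Cyp26a1, Cyp26b1, Cyp26c1 and Dhrs3. That of Aldh1a1 was lost without untreated 18 h replicate 1 (adjusted p = 0.020). Between 42 h and 78 h it changed for 5 of 8 members, against 12.6% of all genes: down for Cyp26a1, Cyp26b1, Dhrs3 and Cyp1b1, up for Rdh10. The RA effect on the 4 genes that break down RA or return retinal to retinol was thus lower at 42 h than at 18 h, and that on Cyp1b1 and Aldh1a1 higher.

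To compare the members of a family, levels were divided by the length of each gene's merged exons (CPM per kb). At 8 h and 18 h with RA, the Cyp26 genes summed to 121 ± 22.3 and 143 ± 8.77 CPM per kb, and Cyp26a1 made up 95.2% to 97.6% of it in each library. The sum was 15.9 ± 11.1 and 15.3 ± 0.52 CPM per kb at 30 h and 42 h, and 3.48 to 4.90 CPM per kb at the last 3 times, with Cyp26a1 still the main member (67.5% to 92.1%). Without RA the sum went the other way, from 1.53 ± 0.21 CPM per kb at 18 h to 26.1 ± 5.69 CPM per kb at 78 h. Cyp26b1 made up 3.22% to 4.92% of that sum at 18 h, 32.6% to 45.7% at 54 h and 74.9% to 80.9% at 78 h. On this scale the arms thus ended with different sums and different leading members. The shares rest on the lengths used, 1983 bases for Cyp26a1 and 5352 bases for Cyp26b1. Undivided, the 2 genes overlapped with RA at 78 h, at 4.06 to 5.82 CPM and 2.28 to 5.84 CPM.

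**Figure D4:**
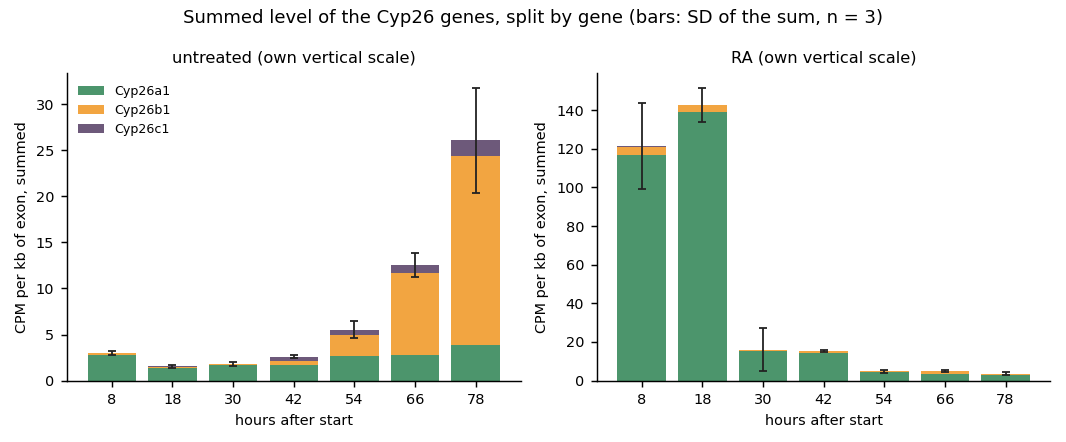
Summed level of Cyp26a1, Cyp26b1 and Cyp26c1 in CPM per kb of exon, as bars split by gene, against hours after day 2, for untreated organoids (left) and organoids with RA (right) on separate vertical scales that start at 0. Error bars are the SD of the sum over 3 libraries. With RA the sum is 143 CPM per kb at 18 h and nearly all Cyp26a1; without RA it is 26.1 CPM per kb at 78 h and mostly Cyp26b1.

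On the same scale the sum of the retinaldehyde dehydrogenases was 1.73 ± 0.16 CPM per kb at day 2, against 1.13 ± 0.18 CPM per kb for the Cyp26 genes. Aldh1a2 made up 92.4% to 95.7% of the dehydrogenase sum. Without RA this sum was 0.31 ± 0.12 CPM per kb at 78 h. With RA it was 2.92 ± 0.26 CPM per kb at 78 h, shared between Aldh1a2 (60.0% to 60.3%) and Aldh1a1 (37.7% to 38.4%). Their order rests on the lengths used, 2264 bases for Aldh1a2 and 4937 bases for Aldh1a1. Undivided, Aldh1a1 was the higher one there, at 5.50 CPM against 3.99 CPM. Rdh10 lay between 2.67 and 5.15 CPM per kb in all 15 condition means.

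Beyond the 9 members, 27 other genes of retinoid handling and the 6 RA and retinoid X receptors were counted with the same calls. Of the handling genes, 1 of 16 tested was raised at 8 h (1.26% of all genes), 6 of 19 at 18 h (8.17%), 5 of 17 at 30 h (5.98%) and 5 of 18 at 42 h (7.49%). Later it was 4 of 18 at 54 h (7.17%), 3 of 19 at 66 h (7.06%) and 2 of 21 at 78 h (7.66%), the last near the share over all genes, and 1 was lowered, at 78 h (4.03%). Their median log2 fold change was 0.49 at 18 h and 0.05 at 78 h. Among those called most often were Aldh1a7 (6 times), Crabp2 (5), Stra6 (4), Adh7 (3) and Crabp1 (2). Stra6, the cell surface receptor that takes up retinol, had 39.3, 44.8 and 47.5 CPM with RA at 18 h against 3.88, 2.72 and 3.25 CPM (3.75 ± 0.11, adjusted p = 2.7e-11). Crabp2, which carries RA to its receptors, had 307, 277 and 298 CPM against 27.9, 29.9 and 29.5 CPM (3.34 ± 0.06, adjusted p = 6.6e-13). Both were thus raised at 18 h beside the breakdown genes.

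Aldh1a7, a close relative of Aldh1a1, had 19.9, 16.6 and 19.6 CPM with RA at 42 h against 1.53, 2.36 and 1.55 CPM (3.35 ± 0.16, adjusted p = 6.8e-08). Per length it stood at 9.04 ± 0.89 CPM per kb with RA at 42 h, against 0.53 ± 0.07 CPM per kb for Aldh1a1. Undivided, Aldh1a1 had 2.25 to 2.98 CPM there. Adh7, an alcohol dehydrogenase able to oxidise retinol, was raised from 42 h to 66 h at 0.48 to 0.98 CPM. Its mean over the 45 libraries was only 0.26 CPM, and the filter on low counts let it be tested at 4 of the 7 times. Crabp1 had 67.4, 332 and 77.1 CPM with RA at 30 h, where replicate 2 again stood apart, and it was lowered at 78 h, to 387 to 483 CPM from 1166 to 1232 CPM untreated.

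Of the receptors, Rarb was raised at all 7 times, with 34.9, 35.6 and 51.1 CPM against 1.54, 1.24 and 0.96 CPM at 8 h (5.03 ± 0.25, adjusted p = 8.7e-05) and 29.7 to 39.3 CPM against 1.91 to 2.38 CPM at 78 h. Rarb therefore stayed high at 66 h and 78 h, where neither Cyp26a1 nor Dhrs3 was called. Rxrg was lowered from 18 h to 78 h, Rarg from 30 h to 66 h, and Rxra was raised at 30 h, while Rara and Rxrb were not called.

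Finally, the genes whose course over the 15 condition means of log2(CPM + 1) was most like that of each member were named, among 14302 genes with a mean of at least 1 CPM. These are descriptions over conditions that share times and arms. For Cyp26a1 they were H2-Bl, Paqr6 and Tchh (Pearson r = 0.95, 0.95 and 0.94), and for Dhrs3 Gm27861, Gm27477 and Hotairm1, all on chromosome 6 (r = 0.98, 0.98 and 0.97). For Aldh1a1 they were Adcy8, Tmprss2 and Prdm13 (r = 0.996, 0.987 and 0.987), and for Cyp1b1 Hkdc1, Slc25a21 and Usp17lb (r = 0.98, 0.97 and 0.97). Aldh1a2 was closest to Gli1, Ptch1 and Tle1 (r = 0.97, 0.96 and 0.96), of which the first pair are targets of hedgehog signalling. For Rdh10 they were 1700086O06Rik, Arl8b and Pla2g7 (r = 0.92, 0.91 and 0.90), and for Cyp26b1 Tmem143, 1700012D14Rik and Iqcc (r = 0.87, 0.87 and 0.87). Among the members themselves the highest values were those of Cyp26a1 with Dhrs3 (r = 0.89) and of Aldh1a1 with Cyp1b1 (r = 0.84), and Cyp26a1 with Cyp26b1 gave 0.41. Cyp26c1 and Aldh1a3, with means under 1 CPM, were left out.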

How the data were processed

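The authors deposited 1 table of raw read counts per gene for the 45 libraries, made from 75-base single-end reads of a directional poly(A) library kit that were trimmed with Trim Galore 0.5.0, filtered with Bowtie2 2.3.4.1, aligned to GRCm38 and counted with featureCounts of Subread 1.6.2, per the study's methods and processing notes. The strand setting of the counting is not given in the sources used here.

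Groups came from the sample titles. Counts were normalised by TMM and tested in edgeR 4.0.16 (R 4.3.3) with the quasi-likelihood test, after filterByExpr (minimum count 10, minimum total 15), each comparison on its own 6 libraries and each interaction on 12. P-values were adjusted over all genes tested, and the SE is the log2 fold change divided by the square root of F. They measure the spread between libraries that the study calls biological replicates. No other gene's exons overlap those of the members, by GENCODE M21.

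The members and gene lists were chosen with earlier results of these data known. All 9 members are named, as are the 6 retinoid handling genes called at most times (1 of them is not reported here), all 6 receptors and the 3 genes most like each member. Symbols were found for 54409 of 54532 genes. The scripts were tested on simulated data. Alternatives were DESeq2 1.42.0, RLE size factors, library totals, other filters, another prior count, a replicate block, one fit of all 45 libraries, each library series alone and each library left out. No pair of libraries agreed within sampling noise (lowest mean chi-square per gene 1.92 over 45 pairs). Same-numbered RA and untreated libraries deviated together, with every r over 0.1, at 1 time, 66 h (r = 0.213 to 0.521). At 30 h, 54 h and 78 h every r was also above 0 (0.0228 to 0.350). Libraries with different numbers were not compared, so this check cannot show at which times, if any, the numbers mark pairs.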

Additional observations from a re-analysis of the deposited data

Results flagged for a closer look

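The RA effect of 12 gene and time combinations differed between times in edgeR's interaction test, with SE after each log2 difference. From 8 h to 18 h the effect on Cyp1b1 grew by 2.53 ± 0.40 (adjusted p = 0.0099).

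From 18 h to 42 h the effect on Cyp1b1 grew by 3.06 ± 0.37 (adjusted p = 2e-05) and that on Aldh1a1 by 3.91 ± 0.82 (adjusted p = 0.0023), the latter against 1 to 4 counts in each 18 h library. The difference was -4.89 ± 0.31 (adjusted p = 3.4e-08) for Cyp26b1 and -3.58 ± 0.73 (adjusted p = 0.0019) for Cyp26c1. It was -3.50 ± 0.14 (adjusted p = 2.8e-10) for Cyp26a1 and -1.70 ± 0.18 (adjusted p = 5.4e-06) for Dhrs3.

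From 42 h to 78 h the difference was -5.44 ± 0.41 (adjusted p = 2.9e-07) for Cyp26b1, whose untreated mean was 2.32 CPM at 42 h and 110.0 CPM at 78 h against 3.83 and 4.13 CPM with RA. It was -3.67 ± 0.21 (adjusted p = 2.2e-08) for Cyp26a1, -2.97 ± 0.27 (adjusted p = 1.8e-06) for Dhrs3 and -2.14 ± 0.25 (adjusted p = 2.3e-05) for Cyp1b1. Rdh10 gave 0.64 ± 0.12 (adjusted p = 0.0012), from -0.40 at 42 h to 0.25 at 78 h. All 78 h libraries are of the later series and all 42 h libraries of the earlier one, and the part of the series in these differences was not tested.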

How the results depend on the processing

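Of 140 counts of members called under other settings, 124 stayed within 1.5 times the reported count and 16 did not. Of 893 log2 fold changes of single members, 871 kept direction and side of the threshold, 12 gained a call, 6 lost one and 4 changed sign. With 1 library left out, 748 of 810 kept both, 33 lost a call, 8 gained one and 21 changed sign. The cause was not tested in any case, except that a stricter filter tests fewer genes.

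With at least 10 counts in every library, 3 members were called at 18 h, 30 h, 66 h and 78 h, in untreated 42 h against day 2 and in the interaction of 42 h with 18 h. At an adjusted p under 0.05 with no minimum fold change, 8 were called at 42 h and 78 h and 7 in RA 42 h against 18 h. For the interaction of 18 h with 8 h the count was 0 with RLE size factors, library totals or the replicate block, 2 in a joint fit over the 45 libraries and 3 without a filter, DESeq2 or an adjusted p under 0.05. Leaving out 1 library gave 2 to 5 members at 30 h and 0 to 3 for that interaction.

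The replicate block changed no member's call at 66 h, where 5 were called. It left 4 members called at 18 h and 4 at 30 h, where the numbers are not known to mark pairs. Over all genes it moved the calls at 8 h from 285 to 125 and those of the interaction of 18 h with 8 h from 58 to 22. Over all genes the calls at 8 h ranged from 80 to 833 with 1 library left out, the highest without RA replicate 3, and were 565 in DESeq2, while 3 members were called each time.

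Signs changed only where no call was made: Aldh1a2 at 8 h was -0.0228 with the block, Rdh10 in the interaction of 18 h with 8 h was 0.0698 with library totals and 0.0138 with the stricter filter, and Aldh1a3 there was -0.0064 with a prior count of 2. With 1 library left out, Rdh10 ran from -0.0094 to 0.11 at 8 h and from -0.0446 to 0.13 at 66 h, Aldh1a2 from -0.13 to 0.25 at 8 h, Dhrs3 from -0.0306 to 0.52 at 66 h, Cyp1b1 from -0.39 to 0.13 in untreated 18 h against day 2 and Cyp26b1 from -0.25 to 0.36 in RA 78 h against 42 h. In the interaction of 18 h with 8 h, Rdh10 ran from -0.0677 to 0.0482, Aldh1a3 from -0.34 to 0.56 and Cyp26c1 from -0.88 to 0.64. Depth limits Cyp26c1, Aldh1a1 and Aldh1a3, with few counts in many libraries.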
